A study of Homo sapiens with 6 samples.

Results

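The genes described here are 10 core genes of the route from RHEB to mTORC1 (mechanistic target of rapamycin complex 1), namely RHEB, TSC1, TSC2, DDIT4, MTOR, RPTOR, DEPTOR, AKT1S1, RPS6KB1 and EIF4EBP1. They were taken by gene symbol, and each of the 10 had 1 row among the 26389 genes of the count table. All 10 were among the 14197 genes with enough reads to be tested, DEPTOR with 9 to 27 reads per library. All 6 libraries were made from HepG2, a human liver tumour cell line. Plasmids for a short hairpin RNA against TCTP, the translationally controlled tumour protein encoded by TPT1, were given to the cells of 3 libraries (shTCTP). The cells of the other 3 received a control hairpin plasmid (shCtrl). Both groups went through the same plasmid transfection with a lipid reagent (Lipofectamine), which need not reach every cell, and the labels give a harvest time for quantitative PCR only. In the sources used here the number of hairpins is not given. The labels do not state that the 3 libraries of each group are separate cultures. The spread that every p-value rests on is therefore that of these libraries and may be technical.

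RHEB is a small GTPase that, when bound to GTP, switches on the mTORC1 kinase at the lysosome. The TSC1-TSC2 complex makes RHEB hydrolyse its GTP and so holds mTORC1 back. Active mTORC1 phosphorylates the S6 kinases and the eIF4E-binding proteins and thereby raises protein synthesis, which in liver is one arm of the response to insulin and amino acids. TCTP has been proposed to load RHEB with GTP, first in Drosophila, and that proposal is debated. Much of this route is set by GTP loading, phosphorylation and protein binding, and these libraries measure messenger RNA only.

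The libraries held 25427614 to 30486409 reads assigned to genes. Library shTCTP 3 was the shallowest and stood apart, its log2 CPM correlating with those of the other 5 at 0.992 on average, against 0.995 for each other library. Its deviation from the other libraries was also correlated with log2 gene length (r = 0.35 across 14012 genes). Such trends were not particular to it. The deviation of shCtrl library 3 had r = -0.29 with log2 length and 0.33 with GC content, beside -0.18 with GC content for shTCTP library 3. All 8 hepatocyte markers examined, ALB and AFP among them, were above 1 FPKM (fragments per kilobase of gene, scaled by the reads of the library). Their summed level was 4839 to 5685 FPKM in shTCTP and 5921 to 6371 FPKM in shCtrl libraries, and the part of this difference in the results below was not tested. None of 7 fibroblast and none of 5 endothelial markers reached 1 FPKM. Of 6 leukocyte markers CD68 and LYZ did. The summed level of the leukocyte markers was 424 to 548 FPKM in shTCTP and 479 to 593 FPKM in shCtrl libraries.

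TPT1, the targeted gene, was lower in every shTCTP library. It stood at 2032, 1807 and 1559 CPM (reads scaled to a common library size with TMM factors) in shTCTP libraries 1 to 3, against 2575, 2249 and 2290 CPM in shCtrl libraries 1 to 3. The estimate was 0.759 of the control level (log2 fold change -0.40, 95% confidence interval -0.76 to -0.03). Over all genes this did not pass the threshold of an adjusted p under 0.05 (adjusted p = 0.396, edgeR quasi-likelihood test). Across the alternative fits, DESeq2 among them, its adjusted p lay between 0.132 and 0.747. In bulk RNA, fewer cells with a transcript and less of it per cell cannot be told apart, for TPT1 as for the genes below.

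None of the 10 core genes passed the threshold after the TCTP hairpin. By the edgeR test 0 of 10 were called, while 1.41% of all tested genes were (200 of 14197), of which 179 were higher (1.26%) and 21 lower (0.148%). Without adjustment 0 of 10 core genes had a p under 0.05, against 11.1% of all tested genes. DESeq2 also called 0 of 10, against 2.21% of all tested genes, and so did limma voom, against 1.17%. Limma on log2 FPKM called 0 of 10 too, against 1.12% with a pseudocount of 1 and 1.38% with one of 0.1. The log2 fold changes lay between -0.15 for DDIT4 and 0.41 for RPS6KB1, with a median of 0.10, beside -0.0023 over all tested genes. A positive estimate was found for 8 core genes and a negative one for DDIT4 and MTOR, beside 7048 positive of 14197 tested genes. This split depends on the fit. The sign of TSC2, at 0.0066, turned in 11 of 17 alternative fits and that of MTOR in 4. With 1 library left out the number called among all genes ranged from 79 without shCtrl library 2 to 343 without shTCTP library 3, and the number among the core genes was 0 in all 6 fits.

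**Figure D1:**
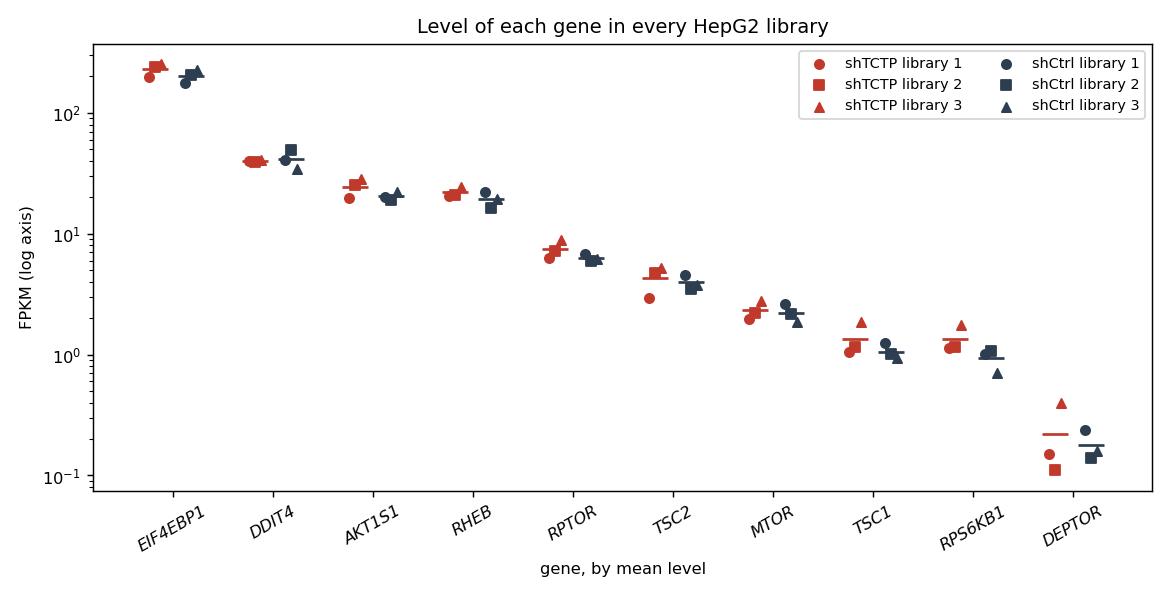
Level of the 10 core genes in FPKM (log axis) in each library, with shTCTP in red left of shCtrl in dark blue, symbols for libraries 1 to 3 and horizontal lines at group means. The points of each gene lie close together beside the span between genes, from 0.11 FPKM for DEPTOR to 252.02 FPKM for EIF4EBP1, and the groups overlap for every gene but RPS6KB1.

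RHEB, the switch itself, had 20.54, 20.78 and 24.47 FPKM in shTCTP libraries 1 to 3, against 22.08, 16.29 and 19.36 FPKM in shCtrl libraries 1 to 3. On the CPM scale the shTCTP libraries lay at 53.3 ± 0.683 CPM and the shCtrl libraries at 50.4 ± 6.39 CPM (SD, n = 3 each). The lowest library was shCtrl 2, at 43.1 CPM, and all 3 shTCTP values fell inside the control range. The log2 fold change of RHEB was 0.08 (SE 0.13, edgeR adjusted p = 0.873). Its 95% confidence interval ran from 0.871 to 1.29 of the control level. Without shCtrl library 2 the estimate was -0.021, so its sign rests on that library. RHEB (GRCh38 chromosome 7, 151466012 to 151520120, minus strand, GENCODE 29) has processed pseudogenes, and the table lists 15 to 35 reads per library for RHEBP1 and 12 to 32 for RHEBP2, beside 1242 to 1673 for RHEB. How reads matching both were assigned is not given in the sources used here.

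RHEBL1, the only close relative of RHEB in the lists examined, was a minor transcript. Of the summed FPKM of both genes, RHEB made up 92.2 ± 1.41% in shTCTP and 90.9 ± 2.59% in shCtrl libraries (SD, n = 3 each). RHEBL1 itself had 55 to 82 reads per library.

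TSC1 and TSC2, whose products form the complex that turns RHEB off, stood well below RHEB per length. TSC1, which stabilises the complex, had 10.1, 10.7 and 14.7 CPM in shTCTP libraries 1 to 3, against 11.2, 9.82 and 9.33 CPM in shCtrl libraries 1 to 3. Library shTCTP 3 was the highest, and the other 2 shTCTP libraries lay inside the control range. The log2 fold change was 0.22 (SE 0.18, edgeR adjusted p = 0.704), and 0.049 without shTCTP library 3.

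TSC2, which carries the catalytic domain, had 19.8, 31.2 and 29.2 CPM in shTCTP libraries 1 to 3, against 29.4, 23.7 and 26.9 CPM in shCtrl libraries 1 to 3. The shTCTP libraries spread more widely than the controls, with the lowest and the highest of all 6 values among them. The estimate was close to no change (log2 fold change 0.0066, SE 0.17, edgeR adjusted p = 0.991), and it ranged from -0.13 without shTCTP library 2 to 0.18 without shTCTP library 1. TSC2 (GRCh38 chromosome 16, 2047465 to 2089487, plus strand) shares 402 exonic bases with NTHL1 and 778 with PKD1, both on the opposite strand. NTHL1 had 1666 to 2501 reads per library, more than the 579 to 927 of TSC2. The libraries were directional, but whether strand was used in counting is not given in the sources used here, so the TSC2 level is uncertain.

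TBC1D7, the third subunit of the complex, stood higher per length than either of its partners. It had 10.8 ± 0.291 FPKM in shTCTP and 10.3 ± 0.563 FPKM in shCtrl libraries, beside 4.31 ± 1.22 and 3.96 ± 0.571 FPKM for TSC2 (SD, n = 3 each). The ratio of TSC2 to TSC1 was 2.78, 4.14 and 2.83 in shTCTP libraries, against 3.70, 3.45 and 4.09 in shCtrl libraries. The groups overlapped (log2 difference -0.23, exact two-sided permutation p = 0.4, 0.533 after Benjamini-Hochberg adjustment over the 4 ratios tested).

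DDIT4, also called REDD1, is induced by hypoxia, glucocorticoids and other stresses and restrains mTORC1 through TSC2. Per length it was the second most abundant core transcript. Its level was 76.0, 71.4 and 63.7 CPM in shTCTP libraries 1 to 3, against 73.1, 93.6 and 67.6 CPM in shCtrl libraries 1 to 3. Library shCtrl 2 was the highest, and the groups overlapped. For DDIT4 the log2 fold change was -0.15 (SE 0.14, edgeR adjusted p = 0.765), with an upper 95% bound of 1.11 times control, and -0.0024 without shCtrl library 2. The antisense gene DDIT4-AS1 overlaps it but had only 1 to 7 reads per library.

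SESN2, which rose, was the 1 gene that passed the threshold among 106 tested genes of the route, beside 1.41% of all tested genes. It encodes sestrin 2, a stress-induced protein that senses leucine and inhibits mTORC1 through the GATOR complexes. SESN2 had 46.2, 53.9 and 51.9 CPM in shTCTP libraries 1 to 3, against 31.4, 28.4 and 33.9 CPM in shCtrl libraries 1 to 3. Every shTCTP library lay above every shCtrl library, as was found for 9.83% of all tested genes. The log2 fold change was 0.70 (SE 0.13, edgeR adjusted p = 0.012). It missed the threshold without shTCTP library 2 (adjusted p = 0.089), shCtrl library 1 (0.0585) or shCtrl library 2 (0.123), in fits with fewer libraries, while its log2 fold change stayed between 0.63 and 0.76. Of the summed sestrin FPKM, SESN2 made up 86.4 ± 2.66% in shTCTP and 80.7 ± 1.99% in shCtrl libraries (SD, n = 3 each). SESN1, a p53-induced relative, did not pass (log2 fold change 0.09), and SESN3, with 3 to 14 reads per library, fell below the filter for testing.

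**Figure D2:**
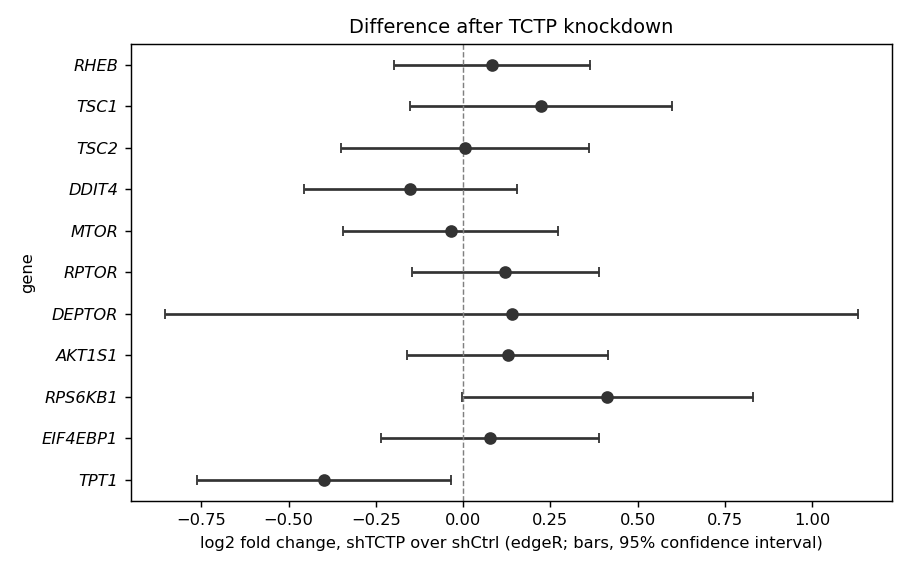
Log2 fold change of shTCTP over shCtrl for the 10 core genes and for TPT1 by the edgeR quasi-likelihood test, with bars for the 95% confidence interval. The interval of every core gene includes 0, that of DEPTOR is the widest at -0.85 to 1.13, and that of TPT1 lies below 0 before adjustment over all genes.

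MTOR, the catalytic subunit, and RPTOR, the scaffold that recruits substrates to mTORC1, had levels that overlapped between the groups. MTOR had 20.2, 21.9 and 23.7 CPM in shTCTP libraries, against 25.3, 22.2 and 20.0 CPM in shCtrl libraries 1 to 3. The values of both groups spanned almost the same range, and the log2 fold change of MTOR was -0.036 (SE 0.15, edgeR adjusted p = 0.959). It turned positive on the FPKM scale (0.050 with a pseudocount of 1) and without shCtrl library 1 (0.057) or shTCTP library 1 (0.019). RPTOR had 49.0, 54.8 and 57.0 CPM in shTCTP libraries, against 50.3, 47.1 and 50.4 CPM in shCtrl libraries. Of the shTCTP libraries 2 lay above all controls and 1 between them, and the log2 fold change was 0.12 (SE 0.13, edgeR adjusted p = 0.788).

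Per length RPTOR was about as far above MTOR in both groups. The ratio of RPTOR to MTOR was 3.19, 3.28 and 3.16 in shTCTP libraries, against 2.61, 2.79 and 3.32 in shCtrl libraries (log2 difference 0.15, exact two-sided permutation p = 0.4, adjusted p = 0.533). MLST8, a subunit of both mTOR complexes, was more abundant than either, at 34.1 ± 2.66 FPKM in shTCTP and 33.9 ± 3.54 FPKM in shCtrl libraries (SD, n = 3 each).

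RICTOR, the scaffold of mTORC2, was near the lower limit of detection. It had 34, 34 and 30 reads in shTCTP libraries, against 25, 22 and 19 reads in shCtrl libraries. The groups did not overlap, as was found for 17.1% of all tested genes. The difference did not pass (log2 fold change 0.55, SE 0.32, edgeR adjusted p = 0.556). The ratio of RPTOR to RICTOR was accordingly 56.9, 65.9 and 73.8 in shTCTP libraries, against 85.3, 85.7 and 102.8 in shCtrl libraries. The log2 difference of -0.48 had an exact two-sided permutation p = 0.1, the smallest that 3 libraries against 3 allow, and an adjusted p = 0.4. With reads in place of FPKM, whose values of 0.06 to 0.12 for RICTOR carry 1 or 2 digits, it was -0.44. That check was chosen after seeing the data. With 0.1 added to each FPKM, a value close to the level of RICTOR itself, the log2 difference was -0.11.

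DEPTOR and AKT1S1 encode proteins that bind mTORC1 and inhibit it, and per length AKT1S1 stood far above DEPTOR. DEPTOR had 12, 9 and 27 reads in shTCTP libraries 1 to 3, against 19, 11 and 13 reads in shCtrl libraries. Library shTCTP 3, the shallowest, had the most reads, and the other 2 shTCTP libraries lay at the low end of the controls or below. The log2 fold change of 0.14 (edgeR adjusted p = 0.948, SE 0.47) was -0.45 without shTCTP library 3 and -0.014 without shCtrl library 2. Its 95% confidence interval ran from 0.554 to 2.19 of the control level. AKT1S1, also called PRAS40 and released from mTORC1 when AKT phosphorylates it, had 119.9, 148.1 and 142.4 CPM in shTCTP libraries, against 117.3, 116.7 and 141.6 CPM in shCtrl libraries. The highest control lay among the shTCTP values, and the log2 fold change was 0.13 (SE 0.14, edgeR adjusted p = 0.793). AKT1S1 shares exonic bases with TBC1D17 on the opposite strand, a gene with 516 to 676 reads per library beside its own 3365 to 4404.

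RPS6KB1, which encodes the S6 kinase S6K1, had the largest estimate of the 10 and was the one core gene whose groups did not overlap. Such a separation was found for 17.1% of all tested genes, with shTCTP above for 9.83% and below for 7.3%. RPS6KB1 had 6.92, 6.83 and 8.85 CPM in shTCTP libraries 1 to 3, against 5.80, 6.63 and 4.52 CPM in shCtrl libraries 1 to 3. The lowest shTCTP value and the highest control value were close to each other. In reads this was 202, 203 and 262 in shTCTP libraries, against 177, 191 and 126 in shCtrl libraries. The log2 fold change was 0.41 (SE 0.20, 95% confidence interval -0.0027 to 0.83), the unadjusted p was 0.0513 and the edgeR adjusted p was 0.454. By unadjusted p it ranked 1604 of the tested genes. With 1 library left out the estimate lay between 0.27 and 0.54 and the adjusted p between 0.411 and 0.819.

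RPS6KB2, which encodes the related kinase S6K2, was by far the more abundant S6 kinase transcript per length. It stood at 71.5 ± 2.74 FPKM in shTCTP and 68.1 ± 5.47 FPKM in shCtrl libraries, beside 1.35 ± 0.355 and 0.933 ± 0.197 FPKM for RPS6KB1 (SD, n = 3 each). RPS6KB1 thus made up 1.84 ± 0.407% of the summed S6 kinase FPKM in shTCTP and 1.36 ± 0.321% in shCtrl libraries (SD, n = 3 each). RPS6KB2 had a log2 fold change of -0.04 and did not pass.

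EIF4EBP1, whose product binds the cap-binding factor eIF4E and blocks translation until mTORC1 phosphorylates it, was the most abundant core transcript per length. It had 198.94, 240.58 and 252.02 FPKM in shTCTP libraries 1 to 3, against 174.94, 204.06 and 225.84 FPKM in shCtrl libraries 1 to 3. On the CPM scale it stood at 236.1 ± 19.2 CPM in shTCTP and 223.9 ± 39.4 CPM in shCtrl libraries (SD, n = 3 each), and the highest and lowest of the 6 were both controls. EIF4EBP1 had a log2 fold change of 0.08 (edgeR adjusted p = 0.899, SE 0.15), -0.051 without shCtrl library 1 and -0.0046 without shTCTP library 2. EIF4EBP1 made up 97.7 ± 0.315% of the FPKM of the 3 eIF4E-binding protein genes in shTCTP and 97.2 ± 0.826% in shCtrl libraries (SD, n = 3 each), with EIF4EBP2 nearly all of the rest.

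The binding protein transcript exceeded that of its partner EIF4E by a wide margin in every library. The per-length ratio of EIF4EBP1 to EIF4E was 107.0, 131.5 and 97.3 in shTCTP libraries, against 83.7, 116.6 and 142.9 in shCtrl libraries. The shTCTP values lay inside the control range (log2 difference -0.0094, exact two-sided permutation p = 1.0, the same after adjustment).

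**Figure D3:**
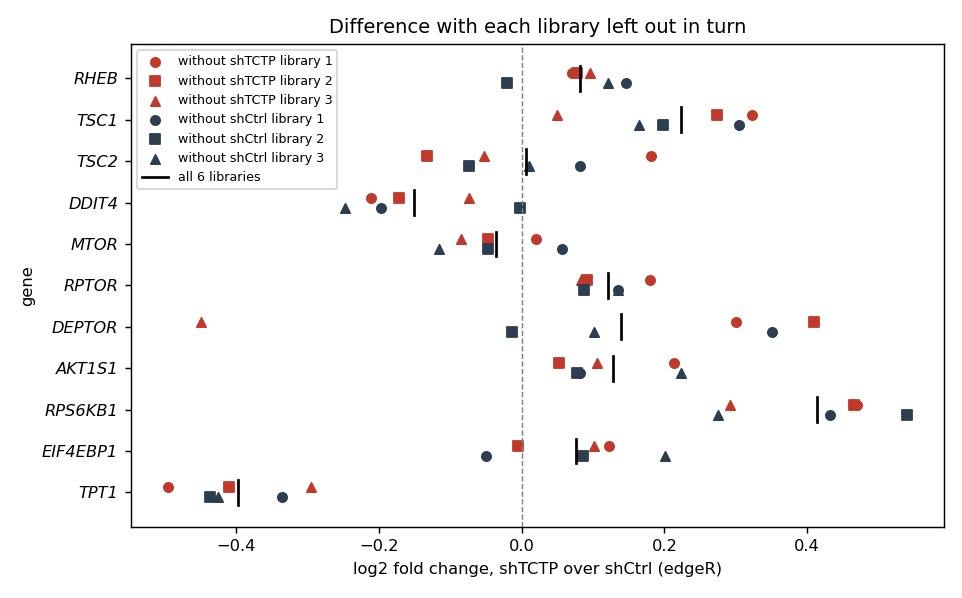
Log2 fold change of shTCTP over shCtrl for each core gene and TPT1 with all 6 libraries (black bar) and with each library left out in turn (red, an shTCTP library; dark blue, an shCtrl library). In all 6 fits TPT1 and DDIT4 stay below 0, DDIT4 at only -0.0024 without shCtrl library 2. RPS6KB1, TSC1, RPTOR and AKT1S1 stay above 0 in all 6, whereas DEPTOR moves to -0.45 without shTCTP library 3.

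By mean FPKM the order of levels in shTCTP libraries was EIF4EBP1, DDIT4, AKT1S1, RHEB, RPTOR, TSC2, MTOR, then TSC1 and RPS6KB1 level at a mean of 1.35 FPKM, and DEPTOR. In shCtrl libraries the order was the same, with TSC1 above RPS6KB1. Neighbours in this order did not overlap between libraries of a group, except AKT1S1 with RHEB and TSC1 with RPS6KB1, whose ranges overlapped in both groups. EIF4EBP1 stood above 97.9% of tested genes in shTCTP and 97.7% in shCtrl libraries, RHEB above 82.6% and 81.8%, MTOR above 46.1% and 47.1%, and DEPTOR above 8.40% and 7.72%. The inhibitors ranged from DDIT4 near the top of the order to DEPTOR at its end, and the kinase lay near the middle of all tested genes.

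Levels compared between genes moved with base composition. The GC content of the longest annotated transcript ran from 38.2% for RPS6KB1 to 65.5% for EIF4EBP1. Across the 10 core genes it had a Pearson r of 0.73 and a Spearman rho of 0.72 with log2 FPKM, beside 0.27 and 0.29 across 14132 tested genes. These are correlations across genes in the same libraries, and genes are not independent replicates. The part of GC content in the order of levels was not tested. Nor was its part in the ratios and shares of FPKM between genes given above.

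The library in which a core gene was highest depended on the scale. In FPKM, which is scaled by total reads, shTCTP library 3 was the highest of the 6 for 9 of the 10 core genes. In CPM with TMM factors, where that library's factor was 1.17, it was the highest for 4. Over all tested genes shTCTP library 3 was the highest for 27.4% of genes in CPM. The share over all tested genes in FPKM was not computed. Whether the 9 of 10 is particular to the core genes was therefore not tested. By limma on log2 FPKM with a pseudocount of 0.1 the median log2 fold change was 0.091 over all tested genes, and 0 of 10 core genes passed there.

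The confidence intervals rest on the spread of these libraries, which may be technical. They do not set a limit on how far the core genes moved. For 7 of the 10 the 95% interval lay within a 1.5-fold change in either direction, the outermost bounds being 0.729 and 1.33 of the control level. The exceptions were TSC1, with an upper bound of 1.51, RPS6KB1, with one of 1.78, and DEPTOR, with bounds of 0.554 and 2.19. A p that missed the threshold does not show that a gene did not differ.

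Beyond the core genes, 102 further genes of the route were listed by function, of which 96 were tested. Of these 1 rose, SESN2, and 0 fell by the edgeR test, beside 1.26% higher and 0.148% lower among all tested genes. All 106 tested genes including the core had a median log2 fold change of 0.018, beside -0.0023 over all tested genes. An unadjusted p under 0.05 was found for 8 of the 106 (7.55%), against 11.1% of all tested genes, and groups that did not overlap for 16 (15.1%), against 17.1%. DESeq2 called 3 of the 106, SESN2, FLCN and TFE3, all higher, beside 2.21% of all tested genes.

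**Figure D4:**
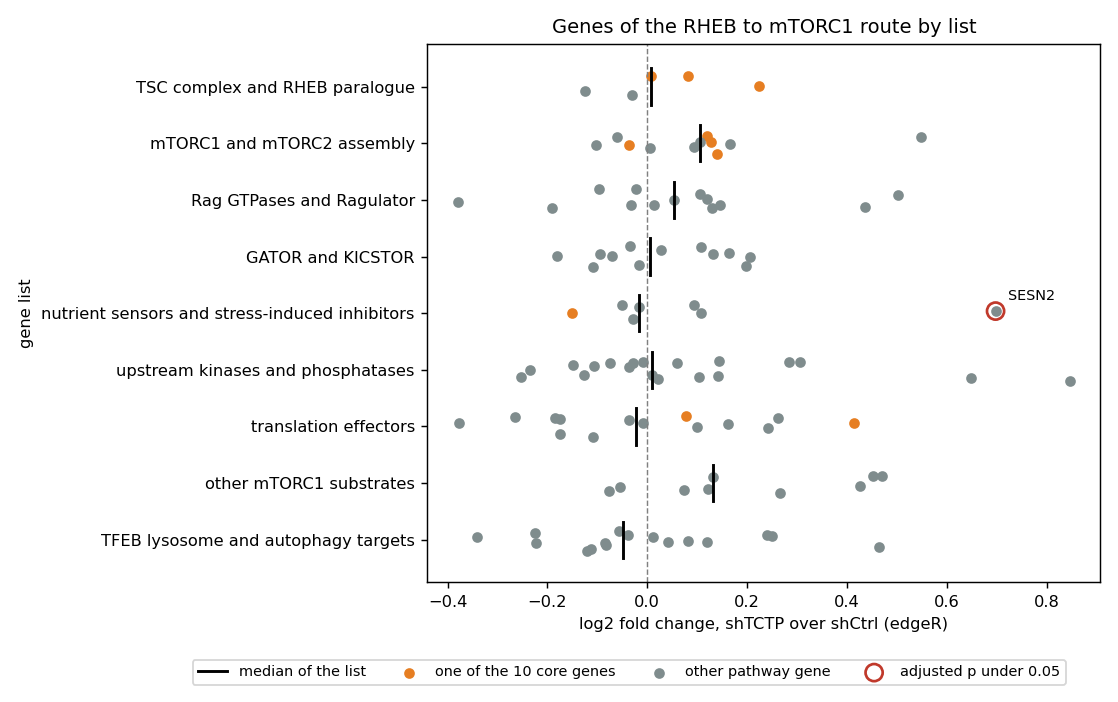
Log2 fold change of shTCTP over shCtrl (edgeR) for the tested genes of 9 lists of the route, core genes in orange, other genes in grey, list medians as black bars and the gene past the threshold ringed in red. Most points lie close to 0 in each list, the list medians run from -0.05 to 0.13, and SESN2 is the ringed gene.

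The Rag GTPases and the Ragulator scaffold bring mTORC1 to the lysosome when amino acids are present. Of 13 tested members none passed, and the median log2 fold change was 0.05. An edgeR unadjusted p under 0.05 was found for 1 (7.69%), beside 11.1% of all tested genes. FLCN, which activates the Rag heterodimer, had 22.6, 22.4 and 23.4 CPM in shTCTP libraries, against 15.0, 16.6 and 16.7 CPM in shCtrl libraries. Its groups were well apart, but the log2 fold change of 0.50 did not pass (SE 0.14, edgeR adjusted p = 0.103). Of the alternatives only DESeq2 called it (adjusted p = 0.0462). By edgeR its adjusted p was 0.308 with the replicate block and 0.0997 to 0.368 with 1 library left out. RRAGC, one of the Rag GTPases, stood at 7.74 ± 2.60 CPM in shTCTP and 5.72 ± 0.998 CPM in shCtrl libraries (SD, n = 3 each), and its log2 fold change of 0.44 was 0.14 without shTCTP library 3.

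Of 12 tested genes of GATOR and KICSTOR, the complexes that pass amino acid signals to the Rags, none passed and none had an unadjusted p under 0.05. KPTN and ITFG2, both KICSTOR subunits, had the smallest p, with log2 fold changes of -0.18 and 0.21. Of 11 tested genes of mTOR complex assembly likewise none passed or had an unadjusted p under 0.05. Their median was 0.11, and besides RICTOR the smallest p was that of TTI2, a chaperone subunit for mTOR and related kinases (unadjusted p = 0.311, log2 fold change 0.17, edgeR). In the list of the TSC complex and RHEB relatives 0 of 5 passed or had an unadjusted p under 0.05. DESeq2 called none in these 3 lists.

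Among upstream kinases and phosphatases, which carry insulin, growth factor and energy signals to TSC2 and RHEB, 0 of 19 passed by edgeR or DESeq2 and 0 had an unadjusted p under 0.05. AKT2, the AKT isoform most tied to insulin action in liver, had 84.6, 95.0 and 104.3 CPM in shTCTP libraries, against 107.7, 115.4 and 115.4 CPM in shCtrl libraries. All shTCTP values lay below the controls, and the difference did not pass (log2 fold change -0.25, SE 0.13, edgeR adjusted p = 0.48). PRKAG2, a regulatory subunit of the energy sensor AMPK, stood at 0.826 ± 0.266 CPM in shTCTP and 0.455 ± 0.157 CPM in shCtrl libraries (SD, n = 3 each), and did not pass (log2 fold change 0.85, SE 0.41, edgeR adjusted p = 0.463).

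Of 14 tested translation effectors none passed by edgeR or DESeq2. An edgeR unadjusted p under 0.05 was found for 1 (7.14%), beside 11.1% of all tested genes. The 1 gene was EEF2K, the kinase that slows elongation until S6 kinase inhibits it. EEF2K had 18.7, 25.4 and 21.1 CPM in shTCTP libraries, against 36.4, 24.9 and 23.3 CPM in shCtrl libraries. The groups overlapped, shCtrl library 1 was the highest, and the log2 fold change of -0.38 (edgeR adjusted p = 0.447, SE 0.18) was -0.15 without that library.

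Of 9 tested further substrates of mTORC1 none passed, 3 had an unadjusted p under 0.05, beside 11.1% of all tested genes, and the median was 0.13. TFE3, a transcription factor of lysosome genes that mTORC1 keeps out of the nucleus, had 81.2, 85.2 and 74.9 CPM in shTCTP libraries, against 57.5, 58.8 and 60.2 CPM in shCtrl libraries. The groups lay apart in every library, and the log2 fold change of 0.45 (SE 0.12) had an edgeR adjusted p of 0.0962. It passed with DESeq2 (adjusted p = 0.0438) and in edgeR with a GC correction chosen after seeing the data (adjusted p = 0.035). It missed the threshold in every other fit. By edgeR the adjusted p was 0.329 with the replicate block and 0.0506 to 0.409 with 1 library left out. GRB10, an adaptor that dampens insulin receptor signalling and is stabilised by mTORC1, stood at 22.5 ± 0.705 CPM in shTCTP and 16.3 ± 2.36 CPM in shCtrl libraries (SD, n = 3 each), and did not pass (log2 fold change 0.47, SE 0.15, edgeR adjusted p = 0.174).

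Of 16 tested lysosome and autophagy genes controlled by TFEB, the relative of TFE3, none passed by edgeR or DESeq2 and the median was -0.05. An edgeR unadjusted p under 0.05 was found for 2 of them (12.5%), in opposite directions, beside 11.1% of all tested genes. SQSTM1, the autophagy receptor p62, had 1048.9, 986.1 and 892.6 CPM in shTCTP libraries, against 615.9, 754.2 and 752.3 CPM in shCtrl libraries. It did not pass by edgeR (log2 fold change 0.46, SE 0.16, adjusted p = 0.212) but did by limma on log2 FPKM (adjusted p = 0.0285 with a pseudocount of 1). WIPI1, which acts in autophagosome formation, had 22.7, 21.7 and 22.0 CPM in shTCTP libraries, against 25.2, 28.9 and 30.1 CPM in shCtrl libraries (log2 fold change -0.34, SE 0.14, edgeR adjusted p = 0.341).

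Over the 6 libraries the patterns most like RHEB among 12204 genes with a mean of at least 1 CPM were those of MAGOHB (Pearson r = 0.97), CAB39L (0.97) and PDSS1 (0.96), all lowest in shCtrl library 2 as RHEB was. Those most like DDIT4 were KHNYN (0.98), PHF3 (0.97) and JSRP1 (0.97), all highest in shCtrl library 2. With 6 libraries, 31 and 44 genes had an r over 0.9 with RHEB and DDIT4, and the value of shCtrl library 2 weighs on each of these correlations.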

How the data were processed

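Per the labels' protocols, polyadenylated RNA was made into directional libraries and sequenced as read pairs. GRCh38 with the tools bcl2fastq, TopHat2 and edgeR is named per the submitters' processing notes. Which gene counter, annotation and strand setting the authors used is not given in the sources used here. Per gene, the authors deposited raw read counts and, separately, deposited FPKM values rounded to 2 decimals.

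Counts were tested with edgeR 4.0.16 (R 4.3.3), using filterByExpr, TMM and the robust quasi-likelihood test with a term for group alone. Benjamini-Hochberg adjustment ran over 14197 genes. Standard errors came from the estimate and the F statistic. Ratios of FPKM were compared by exact permutation. Alternatives used RLE or upper quartile scaling, other filters, a replicate block, DESeq2 1.42.0, limma 3.58.1 (voom, log2 FPKM), a length correction, each library left out and, chosen after seeing the data, a GC correction and ratios of reads. Lengths came from the ratio of counts to FPKM (99.1% of tested genes), GC content and coordinates from GENCODE 29. The fit was tested on simulated data. No pair of libraries in a group agreed within counting error (chi-square over its degrees of freedom 13.9 to 85.7).

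The core genes and the lists were chosen with earlier results of these data known. The genes named are the core genes, TPT1, in each list those past the threshold or the smallest p up to 2, the 3 genes most like RHEB and DDIT4, and, added after values were seen, partners and relatives of core genes.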

Additional observations from a re-analysis of the deposited data

How the results depend on the processing

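The core genes past the threshold numbered 0 under all 17 alternatives. Among all genes, 317 passed with no filter on low counts (246 higher), 314 with DESeq2 (254 higher), 130 with the replicate block (111 higher) and 79 to 343 with 1 library left out. Among the route's genes 3 passed with DESeq2, 2 with limma on log2 FPKM at either pseudocount, 2 with the GC correction and 0 to 1 with 1 library left out, beside 1 in the reported fit. Whether the replicate numbers pair the libraries is not settled here. Same-numbered libraries had correlations of their deviations from the group means of -0.23, 0.0015 and -0.20. With 3 libraries per group these deviations constrain one another, so the correlations cannot decide it. SESN2 passed with the block too (edgeR adjusted p = 0.0425). The sign of TSC2 turned, at -0.0059 with RLE scaling, -0.0025 with upper quartile scaling, -0.0064 with no filter, -0.0053 with a minimum of 1 CPM in 3 libraries, -0.013 with the replicate block, -0.0059 with DESeq2, -0.015 with limma voom and -0.051 with the length correction. MTOR stood at 0.050 and 0.069 on the log2 FPKM scale of limma (pseudocount 1 and 0.1). With 1 library left out, TSC2 ranged from -0.13 to 0.18, MTOR from -0.12 to 0.057, RHEB from -0.021 to 0.15, EIF4EBP1 from -0.051 to 0.20 and DEPTOR from -0.45 to 0.41. The log2 difference of RPTOR to RICTOR was -0.11 after adding 0.1 to each FPKM, a value close to the level of RICTOR itself. The cause of the other shifts was not tested. DEPTOR was not tested with the minimum of 1 CPM. Low read numbers limit genes such as DEPTOR, RICTOR and PRKAG2.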
